A study of Rattus norvegicus with 10 samples.

Results

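The genes Cd53, Il18 and Ifit1 are 3 immune genes among the 4803 accessions spotted on the arrays, of which 1178 could be given a name. They were chosen by the measured ratios of treated to control tibia, which were already known, and their rows were found by RefSeq accession (NM_012523, NM_019165 and NM_020096). Each gene had 1 row, and all 3 passed the filter on missing values. That filter allowed 1 missing array at most and left 4707 rows.

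The tissue was the tibial shaft of female Wistar rats of 12 weeks, freed of its ends, periosteum and marrow. In LOAD rats the right tibia was bent in vivo for 300 cycles at 2 Hz with a peak setting of 60 N, and in SHAM rats the pads were opposed, so that the limb was squeezed without bending. The left tibia of each rat was the contralateral control, and tissue was taken 6 hours after the session. Each of the 10 arrays set the treated tibia against a control tibia, with 5 arrays per group, and the treated tibia carried Cy3 on 3 and Cy5 on 2 arrays of each group. A level here is the log2 intensity of a tibia after scaling between arrays, a ratio is the log2 of treated over control within an array, and the rat level is the mean of both levels of an array.

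Cd53 encodes a tetraspanin, a membrane protein with several membrane-spanning segments, that is found on leukocytes and is widely used as a sign of them. Il18 encodes interleukin-18, a cytokine of the interleukin-1 family that is stored as a precursor and released after cleavage by caspase-1. Ifit1 encodes a cytoplasmic protein that binds foreign RNA and is induced strongly by type I interferon. Transcripts of leukocytes can reach a bone sample through blood and residual marrow as well as through cells within the bone. In whole tissue, fewer cells of a type and less RNA per cell cannot be told apart.

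The region upstream of Cd53 is shown because it holds a short element that is well known from leukocyte genes. In the RefSeq promoter table (GRCr8), 2 of the 3 genes, Cd53 and Il18, had an entry. Both strands were searched for the core GAGGAAGT of PU.1, a transcription factor of myeloid and B cells, for the core GAAANNGAA of the interferon-stimulated response element, and for the core GGGANTTCC of NF-kB, a factor of inflammatory signalling. The only match in Cd53 and Il18 was a PU.1 core on the opposite strand of Cd53. It lay 9 bases before the annotated gene and stands in capitals in the minus strand of chr2:197087926-197088146.
Cd53: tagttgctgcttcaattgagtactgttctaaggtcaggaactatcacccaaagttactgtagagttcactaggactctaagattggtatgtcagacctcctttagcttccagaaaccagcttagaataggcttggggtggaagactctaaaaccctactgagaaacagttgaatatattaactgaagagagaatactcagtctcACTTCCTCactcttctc
Of all 33469 promoters, 2.42% held the PU.1 core, 9.71% the interferon core and 1.64% the NF-kB core, so each is a description of these letters and not a site. The annotated genes lay on chromosome 2 from 197040369 to 197087925 for Cd53, on chromosome 8 from 59802072 to 59829275 for Il18 and on chromosome 1 from 241565197 to 241567262 for Ifit1.

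Detection set the 3 genes apart from each other. The scanner software gives each channel a probability that it carries signal, and a value of 0.5 or more was taken as detected. Cd53 was detected in 20 of 20 channels, Ifit1 in 6 and Il18 in 1. Intensities of Cd53 were 9.28 to 58.4 times that of the empty spot of the same channel. Intensities of Il18 were 0.779 to 6.09 times that of the empty spot, so most of its values lay at or near background. Ifit1 ranged from 1.16 to 34.3 times the empty spot, and its highest values came from a pair of arrays. On all arrays, 52.4% to 81.6% of the spots were detected in both channels, and the empty spot had a signal probability of at most 0.13. The bone cell genes Mepe, Phex, Ibsp and Pdpn were detected in 20 of 20 channels, as the tissue label requires, and so was Alas2, the heme enzyme of red cell precursors.

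**Figure D1:**
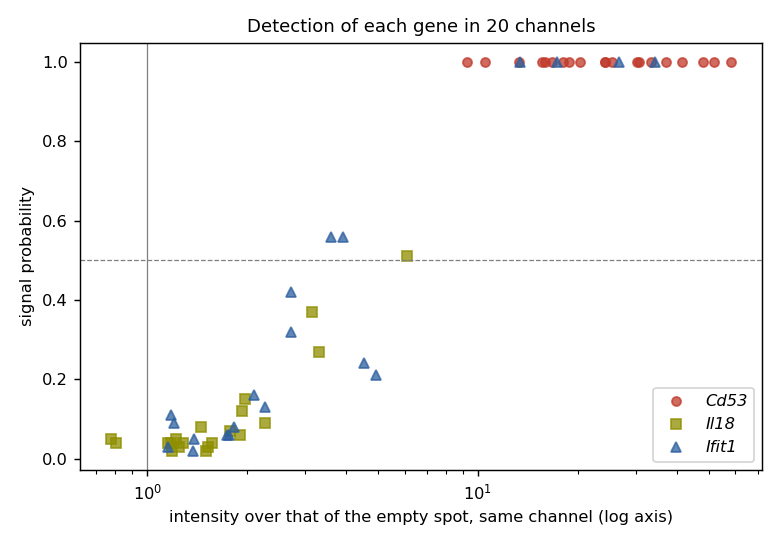
Signal probability of Cd53, Il18 and Ifit1 in each of 20 channels against intensity over the empty spot (log axis, with a line at 1 and a dashed line at the detection limit of 0.5). All 20 Cd53 channels lie at a probability of 1, while Il18 passes 0.5 in 1 channel and Ifit1 in 6.

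The first question was whether the treated tibia differed from its control. With limma and a false discovery rate of 20% as the threshold, 0 of 4707 genes (0%) passed in LOAD, and 157 had an unadjusted p under 0.05. In SHAM this was 0 genes (0%) and 32 genes, and for LOAD minus SHAM 0 genes (0%) and 70 genes. At an unadjusted p under 0.05, 76 genes were higher in LOAD (1.61%), among them Cd53 and Il18. Only 7 genes were lower in SHAM (0.149%), among them Ifit1, and 27 were higher in LOAD than in SHAM (0.574%), again with Ifit1. Since these contrasts chose the members, the ratios below are descriptions.

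The ratio of Cd53 on LOAD arrays 1 to 5 was 0.07, 0.43, 0.17, 0.28 and 0.51. On SHAM arrays 1 to 5 it was 0.22, 0.08, -0.05, 0.30 and -0.13. Each LOAD tibia was above its control, SHAM tibiae lay on both sides of theirs, and the groups overlapped. The mean was 0.29 ± 0.18 (SD, n = 5), or 1.22-fold, in LOAD and 0.08 ± 0.18 (SD, n = 5), or 1.06-fold, in SHAM. Without normalization the mean LOAD ratio was 0.012, which was 0.24 above the median of all genes, and the mean SHAM ratio was below 0 at -0.33, which was 0.09 above that median. Of all 4707 genes, 92 were higher on every LOAD array (1.95%). The LOAD minus SHAM difference was 0.21 (standard error 0.12), and it was 0.11 with median centring and 0.34 without normalization. It was 0.10, 0.22, -0.02 and 0.64 in the 4 scan batches, which are sets of arrays imaged together, so 1 of 4 values was on the other side of 0. The first batch held 2 LOAD and 2 SHAM arrays, and each of the others held 1 LOAD and 1 SHAM array. The mean LOAD ratio was 0.17 on the 3 arrays with the treated tibia in Cy3 and 0.47 on the 2 with it in Cy5, and in SHAM these were 0.01 and 0.19.

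Levels of the separate tibiae put this ratio in context. In LOAD rats 1 to 5 the Cd53 level of the loaded tibia was 9.68, 9.84, 10.29, 10.09 and 9.88, and that of the control tibia was 9.61, 9.41, 10.12, 9.81 and 9.37. In SHAM rats the squeezed tibia had 10.02, 10.08, 10.13, 10.70 and 10.13, and the control tibia had 9.80, 10.01, 10.18, 10.40 and 10.25. The 3 lowest levels of all were those of control tibiae of LOAD rats, and 3 of 5 loaded tibiae lay below every squeezed tibia. Mean levels were 9.95 ± 0.24 in loaded, 9.66 ± 0.31 in LOAD control, 10.21 ± 0.28 in squeezed and 10.13 ± 0.23 in SHAM control tibiae (SD, n = 5 each).

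**Figure D2:**
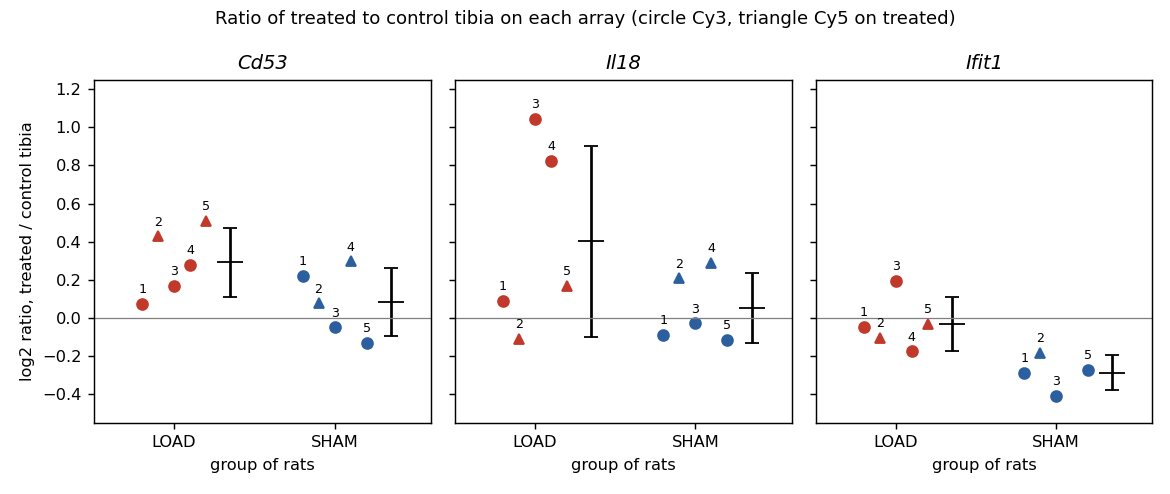
Log2 ratio of treated to control tibia for Cd53, Il18 and Ifit1 on each LOAD and SHAM array (numbers are replicates, circles and triangles mark Cy3 and Cy5 on the treated tibia, bars are the mean and SD). All 5 LOAD ratios of Cd53 lie above 0, the high Il18 ratios come from LOAD 3 and LOAD 4, and all 4 SHAM ratios of Ifit1 lie below 0.

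The rat level compares the groups without the ratio that chose the genes. It was 9.81 ± 0.26 (SD, n = 5) for Cd53 in LOAD rats and 10.17 ± 0.24 (SD, n = 5) in SHAM rats, and 3 of 5 LOAD rats lay below every SHAM rat. The difference, LOAD minus SHAM, was -0.36 (standard error 0.17, limma adjusted p = 0.822 over 4707 genes). It was -0.34, 0.05, -0.61 and -0.57 in the 4 scan batches, with 1 rat per group in each batch but the first. No gene passed for rat level (0%), and 257 had an unadjusted p under 0.05, so no call was made for Cd53.

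**Figure D3:**
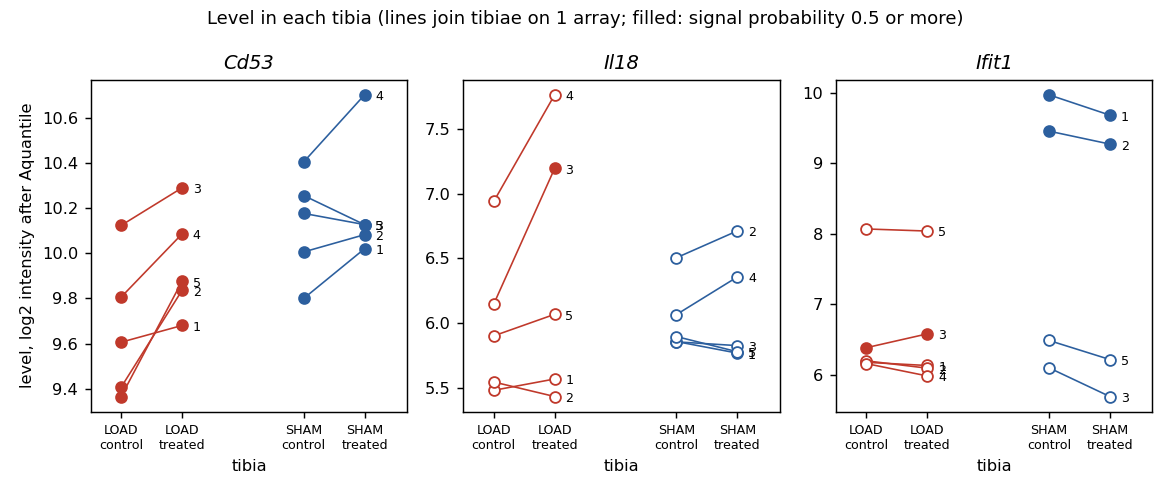
Level (log2 intensity after scaling between arrays) of Cd53, Il18 and Ifit1 in each control and treated tibia, with lines that join the tibiae of an array (filled points have a signal probability of 0.5 or more, and numbers are replicates). For Cd53 the 3 lowest points are LOAD control tibiae, for Il18 nearly all points are open, and for Ifit1 only SHAM 1 and SHAM 2 lie above 9.

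Il18 was higher in the loaded tibia on 4 of 5 arrays, with ratios of 0.09, -0.11, 1.05, 0.82 and 0.17 on LOAD 1 to 5. In SHAM the ratios were -0.09, 0.21, -0.03, 0.29 and -0.12. LOAD 3 and LOAD 4 stood above every other array, and the remaining 3 LOAD ratios fell within the SHAM range. The mean was 0.40 ± 0.50 (SD, n = 5) in LOAD and 0.05 ± 0.18 (SD, n = 5) in SHAM. The loaded tibia of LOAD 3 was the only channel with a signal probability above 0.5, at 0.51, and that of LOAD 4 was 0.27. The confidence of the spot, a quality value of the software, was 0.16 on LOAD 3 and 0.11 on LOAD 4, against a minimum of 0.11 for use. Without LOAD 3 and LOAD 4, a choice made after seeing the data, the mean LOAD ratio was 0.05. The mean LOAD ratio was 0.65 with the treated tibia in Cy3 and 0.03 with it in Cy5, and in SHAM these were -0.08 and 0.25. LOAD minus SHAM was thus 0.73 in Cy3 and -0.22 in Cy5. In the 4 scan batches it was -0.07, 1.07, 0.53 and 0.28.

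Il18 levels of the loaded tibia on LOAD 1 to 5 were 5.57, 5.44, 7.19, 7.76 and 6.07, and those of the control tibia were 5.48, 5.55, 6.15, 6.94 and 5.90. Squeezed tibiae ranged from 5.77 to 6.71 and SHAM control tibiae from 5.86 to 6.51. The control tibia of LOAD 4 also lay above every SHAM tibia, so that array was high in both channels. The rat level differed by 0.14 (standard error 0.33, limma adjusted p = 0.946). Without LOAD replicate 4 the difference was -0.15.

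Ifit1 was the member with the most even ratios. On LOAD 1 to 5 they were -0.05, -0.10, 0.20, -0.18 and -0.03, and on SHAM 1, 2, 3 and 5 they were -0.29, -0.18, -0.41 and -0.27. SHAM 4 had a confidence of 0.04 and no usable value. All 4 squeezed tibiae were below their controls, and every LOAD ratio was above every SHAM ratio. Among these arrays, only SHAM 1, SHAM 2 and LOAD 3 were detected, so the other ratios compare channels under the detection limit. Signal probabilities of the squeezed and control tibia were 0.02 and 0.16 on SHAM 3 and 0.06 and 0.13 on SHAM 5. Of all genes, 78 were lower on every SHAM array (1.66%) and 9 had every LOAD ratio above every SHAM ratio (0.191%). The mean was -0.03 ± 0.14 (SD, n = 5) in LOAD and -0.29 ± 0.09 (SD, n = 4) in SHAM. With no confidence filter, which returns SHAM 4, the SHAM mean was -0.34, and with median centring instead of loess it was -0.11.

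Between arrays, however, Ifit1 varied far more than between the tibiae of an array. Both tibiae of an array shared the same spot, so a difference between rats and one between arrays cannot be told apart. Its rat level was 6.15, 6.14, 6.48, 6.07 and 8.05 on LOAD 1 to 5 and 9.83, 9.37, 5.89 and 6.35 on SHAM 1, 2, 3 and 5. SHAM 1 and SHAM 2 were bright in both tibiae, with a signal probability of 1 in all 4 channels and intensities 13.4 to 34.3 times the empty spot. LOAD 5 was intermediate, with signal probabilities of 0.24 and 0.21, and LOAD 3 reached 0.56 in both channels. The SD of the rat level was 1.53 (n = 9), which ranked 25 of 4707 genes against a median of 0.32. The SD of the ratio was 0.18, which ranked 3524 against a median of 0.24. SHAM 1 and SHAM 2 shared their scan batch with LOAD 1 and LOAD 2, on which Ifit1 was not detected. The rat level differed by -1.28 between LOAD and SHAM (standard error 0.79, limma adjusted p = 0.822, with SHAM 4 missing). Without SHAM 1 and SHAM 2, a choice made after seeing the data, it differed by 0.45, and without SHAM replicate 1 by -0.62.

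The array carried 5 tested genes of the interferon response list, and none passed the test in any contrast. Beside Ifit1 these were B2m, the light chain of class I histocompatibility molecules, Psmb9, a subunit of the immunoproteasome, Irf1, a transcription factor induced by interferon, and Eif2ak2, a kinase activated by double-stranded RNA. In SHAM 1 and SHAM 2 the rat level of B2m was 13.01 and 13.60 against 12.77 to 13.55 in the other 8 rats. Psmb9 had 10.66 and 10.60 against 10.53 to 10.91, and Eif2ak2 had 7.08 and 6.98 against 6.27 to 7.19. Irf1 had 8.73 and 8.96 against 8.92 to 9.43, so these rats were not above the others in Irf1, Psmb9 or Eif2ak2. B2m, Psmb9 and Irf1 were detected in 20 of 20 channels but Eif2ak2 in 7, so most values of Eif2ak2 lay under the detection limit. Ifnb1, which encodes interferon beta, was detected in 1 of 20 channels. The median ratio of the list, with Ifit1 itself counted, was -0.03 in LOAD and -0.01 in SHAM, beside -0.01 and 0.00 over all genes. In LOAD this median was the ratio of Ifit1 itself. Over the 4 genes of the list with a value on every array, which leaves Ifit1 out, it was 0.001 in LOAD and -0.0007 in SHAM.

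**Figure D4:**
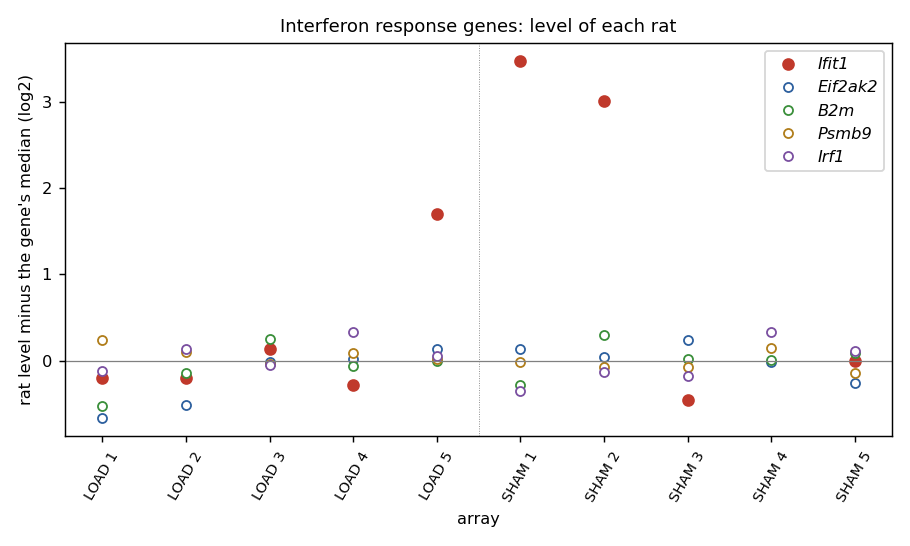
Rat level of Ifit1, Eif2ak2, B2m, Psmb9 and Irf1 on each array, as the log2 difference from the median of that gene over the arrays (filled points are Ifit1). Ifit1 stands far above its median on SHAM 1, SHAM 2 and LOAD 5, where the other 4 genes stay near theirs.

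Leukocyte content was read from 4 genes of a list of 19 leukocyte markers, all detected in at least 15 of 20 channels. Beside Cd53 they were Cd44, a hyaluronan receptor that bone cells also carry, Cd37, a tetraspanin of B cells, and Vav1, a signalling protein of blood cells. In LOAD, 2 of 4 had a mean ratio above 0 and the median with Cd53 itself counted was 0.12, beside -0.01 over all genes. In SHAM, 2 of 4 were above 0 and the median was 0.02. The LOAD median was 0.04 with median centring instead of loess, 0.07 without LOAD replicate 4 and 0.19 without LOAD replicate 5. Mean LOAD ratios were 0.26 ± 0.26 for Cd44, -0.05 ± 0.44 for Cd37 and -0.01 ± 0.16 for Vav1 (SD, n = 5), none past the test. The median of these 3 genes without Cd53 was 0.07, 0.14, 0.02, 0.30 and -0.30 on LOAD 1 to 5. It was thus above 0 on 4 of 5 loaded arrays, as Cd53 was, and below 0 on LOAD 5, where Cd53 had its highest ratio. On LOAD 5 Cd44 was at -0.09, Cd37 at -0.78 and Vav1 at -0.30, whereas Vav1 was above 0 on the other 4 LOAD arrays. In rat level, 4 of 4 were lower in LOAD rats, with a median of -0.17 beside -0.01 over all genes, and none passed the test. Of all 4707 genes, 2444 were lower and 2263 higher in the rat level of LOAD rats. Some lists of other cell types also lay mostly on 1 side in rat level. Others did not, since of 9 T and NK cell genes 4 were higher and 5 lower in LOAD rats. Of the erythroid and platelet genes 4 of 4 were lower in LOAD rats, with a median of -0.19, of the osteocyte and osteoblast genes 5 of 5 were lower, with a median of -0.08, and of the muscle genes 7 of 8 were higher, with a median of 0.21. None of these passed the test, and their part in the leukocyte values was not tested.

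**Figure D5:**
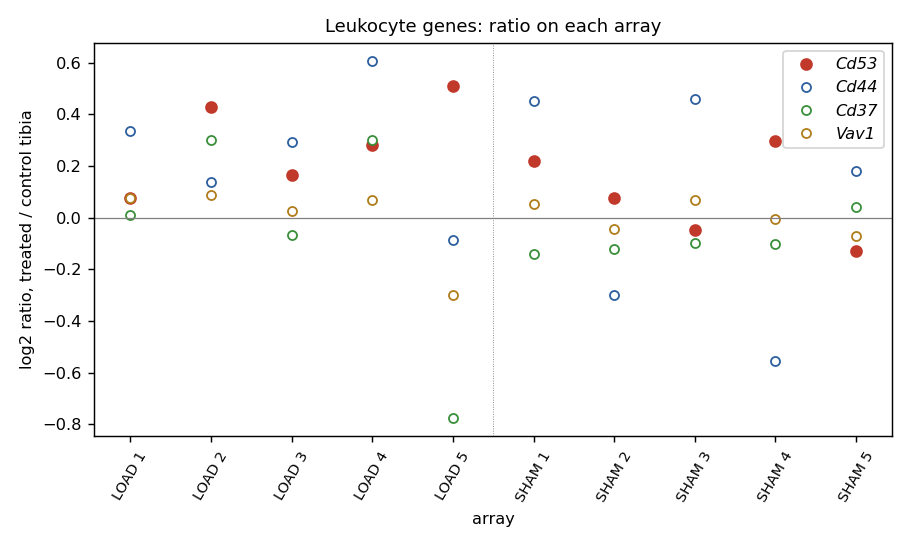
Log2 ratio of treated to control tibia for Cd53 (filled), Cd44, Cd37 and Vav1 on each array. On LOAD 5 Cd53 reaches 0.51 while the other 3 genes lie below 0, and on LOAD 1 to 4 most points lie above 0.

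Markers of single leukocyte types moved no more clearly. Lyz2, the lysozyme of myeloid cells, had a LOAD ratio of 0.34 ± 1.10 (SD, n = 5), from -1.32 on LOAD 5 to 1.70 on LOAD 2. Aif1, a macrophage protein, had 0.01 ± 0.15, and Cxcr2, a chemokine receptor of neutrophils, had 0.06 ± 0.14 (SD, n = 5). Of 9 T and NK cell genes 1 was detected in at least 15 channels, and 5 were above 0 in LOAD, with a median of 0.01. The 5 mast cell genes were all detected and had a median of -0.11 in LOAD and 0.16 in SHAM. The LOAD median was 0.08 without LOAD replicate 4, so its sign rested on that array. The SHAM median was smaller, at 0.04, without SHAM replicate 4, but stayed above 0. None of these genes passed the test.

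Of 22 listed genes of the interleukin-1 family, the interleukin-18 pathway and the inflammasome, 5 were found on the array. The genes of the interleukin-18 receptor were not among them. Of the 5 genes found, Il18 among them, 5 had a mean ratio above 0 in LOAD, with a median of 0.06, and 4 in SHAM, with a median of 0.05. Of all 4707 genes, 2211 were above 0 in LOAD, with a median of -0.01, and 2412 in SHAM, with a median of 0.00. The SHAM median of the list was the ratio of Il18 itself, which was detected in 1 of 20 channels. Casp1, the protease that cleaves the interleukin-18 precursor, was detected in all channels and had 0.11 ± 0.16 in LOAD and 0.01 ± 0.08 in SHAM (SD, n = 5). Il1a, which encodes interleukin-1 alpha, had 0.01 ± 0.34 in LOAD and -0.18 ± 0.20 in SHAM (SD, n = 5). Il1rap, a receptor subunit shared by several members of the family, had 0.06 ± 0.07 in LOAD (SD, n = 5) and was detected in 1 of 20 channels. None passed the test.

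Genes of an inflammatory response showed no shared direction. Of 13 tested cytokine, chemokine and adhesion genes, 6 were above 0 in LOAD and 7 below, with a median of -0.01, and in SHAM 5 were above and 8 below, with a median of -0.01. Only 5 of the 13 were detected in at least 15 channels, and Tnf, Il10 and Ccl20 were detected in none. Over the 3 ratio contrasts the genes with the lowest p were Ccl20, Ptgs2, Icam1 and Tnf. The LOAD ratio was 0.14 ± 0.08 for Ccl20, a chemokine, and -0.22 ± 0.27 for Ptgs2, the inducible cyclooxygenase (SD, n = 5). Icam1, an adhesion molecule, had a SHAM ratio of 0.24 ± 0.42 (SD, n = 5). It was 0.97 on SHAM 3 and -0.05 to 0.13 on the other SHAM arrays. Tnf, a cytokine, had a LOAD minus SHAM difference of 0.33 (standard error 0.21). None of these genes passed the test. Vcam1, an adhesion molecule that binds leukocytes, was named after its values were seen, and its rat level was -0.73 in LOAD against SHAM rats (standard error 0.22, limma adjusted p = 0.822).

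Ratios of skeletal muscle transcripts on the same arrays are given beside the members, and none passed the test in any contrast. Of 8 tested muscle genes, 8 had a mean LOAD ratio below 0, with a median of -0.65, and 6 were above 0 in SHAM, with a median of 0.07. Ckm, the muscle creatine kinase, was at -2.10 on LOAD 3 and -2.56 on LOAD 4, the arrays with the high Il18 ratios. It was at -1.96 on LOAD 5, where the Cd53 ratio was highest, but at -0.23 on LOAD 2, where the Cd53 ratio was 0.43. The part of muscle content in the ratios of Cd53, Il18 and Ifit1 was not tested.

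Relations between arrays were computed for the 3 pairs of members and for each member with the medians of 4 lists, 15 in all, over LOAD and SHAM arrays together. The medians used only genes with a value on every array. These were 4 genes of the interferon list, without Ifit1, and 7 of the muscle list. The relations use the ratios that chose the members, and the difference between the groups enters each of them, so they are descriptions. None passed the adjustment over the 15 (lowest adjusted permutation p = 0.135). Il18 with the interferon list had a Pearson's r of 0.75 and a Spearman's rho of 0.78 over 10 arrays, with Il18 detected in 1 of 20 channels. With LOAD 3 and LOAD 4 left out, as the arrays most distant from its median, r was 0.59. Il18 with the muscle list had a Pearson's r of -0.74 and a Spearman's rho of -0.22, and r was 0.37 without LOAD 3 and LOAD 4, so this relation rested on those arrays. Cd53 with the other leukocyte genes had a Pearson's r of -0.24 and a Spearman's rho of -0.13, and r was 0.28 without LOAD 5 and SHAM 5. With the inflammatory list Cd53 had a Pearson's r of 0.51 and a Spearman's rho of 0.54, and r was 0.67 without those arrays. With the muscle list Cd53 had a Pearson's r of -0.27 and a Spearman's rho of -0.19, and r was -0.24 without those arrays. Il18 with Ifit1 had a Pearson's r of 0.64 and a Spearman's rho of 0.53 over 9 arrays, and r was 0.48 without LOAD 3 and LOAD 4.

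Among named genes detected in at least 15 channels, Apc, a regulator of Wnt signalling, had the ratio most like that of Cd53 (Pearson's r 0.87 over 10 arrays, 729 genes compared), followed by Egln3 at 0.72 and Sycp3 at 0.67. For Il18 the most alike was Rgs12, a regulator of G protein signalling (r 0.79 over 10 arrays), followed by Ldhb at 0.76 and Anxa2 at 0.74. For Ifit1 it was Psma5, a proteasome subunit (r 0.95 over 9 arrays), followed by Slc1a2 at 0.92 and Rgs12 at 0.88. These were the highest of many correlations on shared arrays and carry no test.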

How the data were processed

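The 10 arrays of tibial shaft were used, as 5 LOAD and 5 SHAM. Groups and dyes came from the labels. SHAM 1 carries conflicting labels, since 1 field names LOAD. It was kept in SHAM, as its title and description have it. On 8 arrays the tube numbers of both RNAs are adjacent and on LOAD 4 and SHAM 4 they are not, so whether those hold tibiae of 1 rat was not settled. The authors quantified the spots with BlueFuse (2.0 in the submitters' processing notes). The deposited files give an intensity per channel without normalization, and the authors' software added 2 further values per spot, the confidence and, as a fraction, the probability of signal. The deposited matrix holds log2 ratios of these intensities, equal within 0.000527.

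Spots with confidence under 0.11 were set to missing. Ratios were normalized by loess (span 0.3, 4 iterations), and levels between arrays by Aquantile. Genes with more than 1 missing value were left out. Models were fitted in limma 3.58.1 (R 4.3.3) with a mean per group, moderated statistics and Benjamini-Hochberg adjustment, at a false discovery rate of 20%. Fits were tested on simulated data. The p-values measure the spread between arrays. Correlations used 100000 permutations, or exact enumeration under 10 arrays, 2-sided (Python 3.11.15). The number of arrays limits the precision.

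Named genes were the 3 members, up to 4 genes of each list with the lowest p in a ratio contrast, and the 3 genes most like each member. The text gives a selection, and 1 leukocyte gene is not reported here and was left out of its list. Members and lists were chosen with earlier results of these data known. Names came from RefSeq accessions (1177) and from the paper (1), and 3625 rows stayed unnamed. Alternatives changed the normalization, filters, dye, scan batch and replicate terms, and the arrays included.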

Additional observations from a re-analysis of the deposited data

Results flagged for a closer look

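In 3 cases 1 array stood apart from its group by Dixon's criterion, under which chance marks about 1 in 20 groups, and 24 sets of values were checked. The Cd53 level of the squeezed tibia of SHAM 4 was 10.70, above the other 4 squeezed tibiae at 10.02 to 10.13. The Ifit1 level of the control tibia of LOAD 5 was 8.07, above the other 4 LOAD controls, and its rat level was 8.05, above the other 4 LOAD rats at 6.07 to 6.48. On LOAD 5 the signal probability of Ifit1 was 0.24 and 0.21, under the detection limit.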

How the results depend on the processing

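Without normalization the median of all genes was -0.23 in LOAD and -0.42 in SHAM. The counts of genes then became 9 in LOAD and 2 in LOAD minus SHAM. Cd53 then had ratios of 0.012 in LOAD and -0.33 in SHAM, Il18 -0.36 in SHAM, and Ifit1 -0.18 in LOAD and -0.53 in SHAM. Relative to that median, Cd53 was 0.24 in LOAD and 0.09 in SHAM. With median centring Ifit1 was -0.11 in SHAM and 0.13 in LOAD minus SHAM. The rat level of Il18 turned to -0.12 at a confidence minimum of 0.15, to -0.11 without both arrays numbered 4 and to -0.38 without LOAD 3 and LOAD 4, and that of Ifit1 to 0.45 without SHAM 1 and SHAM 2. Genes that passed for rat level numbered 2 without LOAD replicate 3 and 5 without LOAD 3 and LOAD 4. The cause was not tested.

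With 1 replicate left out at a time, the counts for LOAD, SHAM and their difference stayed at 0, and the count for rat level ran from 0 to 2. The Cd53 ratio ran from 0.24 to 0.35 in LOAD, and its rat level difference from -0.46 to -0.26. The Il18 LOAD ratio ran from 0.24 to 0.53, and its rat level difference from -0.15 to 0.33. The Ifit1 SHAM ratio ran from -0.32 to -0.25, and its rat level difference from -1.94 to -0.62. Same-numbered arrays did not deviate together in every pair (correlations of ratios from -0.41 to 0.07 and of rat levels from -0.10 to 0.24), so the numbers were not taken to pair them. With the replicate block no gene passed, and the LOAD ratio of Cd53 was 0.29, of Il18 0.40 and of Ifit1 -0.03. Low intensity limits Il18 and, on most arrays, Ifit1.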
